A study of Saccharomyces cerevisiae with 12 samples.

Results

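The trehalose pathway of Saccharomyces cerevisiae, budding yeast, was followed across 4 glucose levels through the 7 genes that make and break down this sugar: TPS1, TPS2, TPS3 and TSL1 for synthesis, and NTH1, NTH2 and ATH1 for breakdown. They were chosen by gene symbol from the 5449 genes with a probe set on the array, and each of the 7 had a single probe set. Their systematic names are YBR126C for TPS1, YDR074W for TPS2, YMR261C for TPS3, YML100W for TSL1, YDR001C for NTH1, YBR001C for NTH2 and YPR026W for ATH1. Yeast had been grown with 2%, 1%, 0.5% or 0.25% glucose, the only condition the labels give. Total RNA of 3 biological replicates per level was labelled with biotin and read on 12 arrays. The labels name neither the strain nor when cells were taken, and they leave the word log in each sample title unexplained. Where nothing else is said, a value is the deposited signal, a linear intensity scaled alike on every array.

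Trehalose is a disaccharide of glucose that yeast keeps as a reserve and as a protectant of proteins and membranes, and it is known to build up when growth slows or stress sets in. Tps1 joins UDP-glucose and glucose 6-phosphate into trehalose 6-phosphate, Tps2 removes the phosphate, and Tps3 and Tsl1 are the regulatory subunits that complete the synthase complex. Neutral trehalase Nth1, its paralogue Nth2 and acid trehalase Ath1 split trehalose back into glucose. Several of these genes are known for glucose repression and for activation through the stress factors Msn2 and Msn4, and the intermediate trehalose 6-phosphate is known to restrain hexokinase at the entry of glycolysis.

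As glucose fell from 2% to 0.25%, the mean signals of TSL1, TPS2, NTH2 and TPS1 were higher at every step, and the largest difference was in TSL1, at 1.60-fold. TPS3 and NTH1 stayed within 1.07-fold of their 2% level at 0.25% glucose. In the fit of level means without pairing, 0 of the 6 members bright enough to be tested passed for 0.25% against 2% (limma, adjusted p under 0.05), where 4.04% of all 4086 tested genes did and 2.91% rose. An unadjusted p under 0.05 was found for 3 of the 6 members and for 15.8% of all tested genes. With the replicate number as a block, which compares same-numbered arrays, TSL1, TPS2, NTH2 and TPS1 rose, 4 of 6 members, where 10.9% of all tested genes passed and 6.36% rose. In cultures measured in bulk, more RNA per cell and more cells with the RNA cannot be told apart.

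The 2% arrays stood apart in the 3' to 5' ratio of their control genes and had a lower mean ribosomal RNA signal, with overlap between arrays. Probe sets at the 3' end of 7 control genes exceeded those at the 5' end by 1.28 ± 0.12 (log2, SD, n = 3) at 2% glucose, and by 0.88 to 0.91 at the lower levels. Ribosomal RNA, read with 16 probe sets, had a mean log2 signal of 7.66 ± 0.98 at 2% and of 8.82 to 9.02 below it (SD 0.66 to 0.76, n = 3 each), and replicate 3 at 2% (8.70) lay among the arrays of the lower levels. Replicate 1 at 2% had the highest 3' to 5' ratio of the 12 arrays (1.42) and the lowest ribosomal RNA signal (6.75). Both controls differ along with every comparison against 2%, and values that take them into account are given with the slopes.

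**Figure D1:**
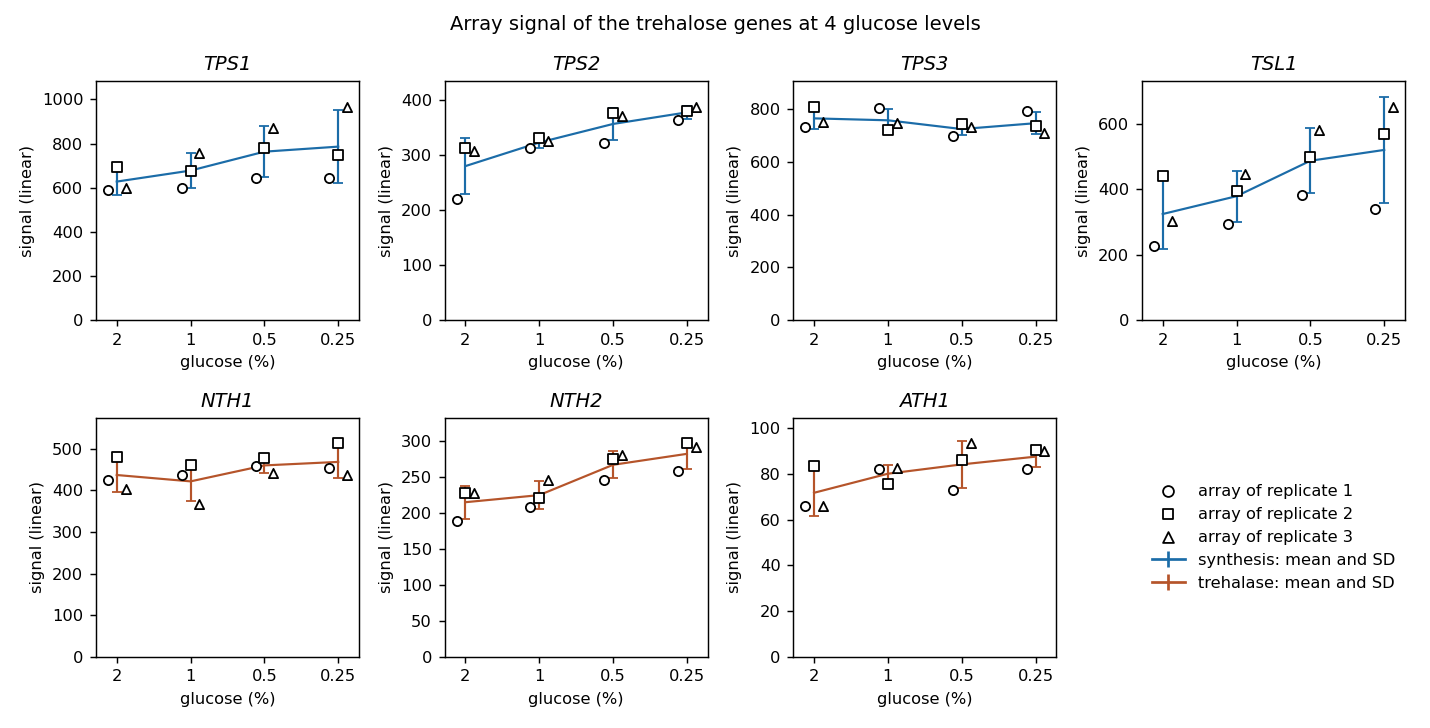
Signal of the 7 trehalose genes (linear, from 0) at 2%, 1%, 0.5% and 0.25% glucose. Open symbols are single arrays, with circles, squares and triangles for replicates 1, 2 and 3; lines join level means and bars are SD (n = 3). TSL1, TPS1, TPS2 and NTH2 have higher means toward 0.25% glucose with replicate 1 lowest at each level, while the means of TPS3 lie between 724 and 764 and those of NTH1 between 421 and 468.

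TPS1, the synthase itself, had 588, 696 and 599 at 2%, then 599, 677 and 757 at 1%. Its signals were 642, 778 and 870 at 0.5%, and 643, 748 and 967 at 0.25%. The mean was 628 ± 59.4 at 2% and 786 ± 165 at 0.25% (SD, n = 3 each), with the widest spread at 0.25%, where replicate 3 was the highest array of all, and the levels overlapped at each step. The log2 fold change of 0.31 (SE 0.15, adjusted p = 0.324) did not pass, and TPS1 rose with the replicate block (SE 0.09, adjusted p = 0.0381). That blocked call was lost when one of 5 arrays was left out: replicate 3 at 0.25% (0.20, adjusted p = 0.254), replicate 3 at 2% (0.16, adjusted p = 0.166), replicate 1 at 0.25% (0.055), replicate 2 at 0.5% (0.0549) or replicate 3 at 1% (0.0516).

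TPS2, the phosphatase of the final step, had 221, 313 and 307 at 2% and 313, 331 and 326 at 1% in replicates 1, 2 and 3. It reached 323, 377 and 372 at 0.5%, and 365, 381 and 389 at 0.25%. All arrays of 0.5% and of 0.25% lay above all arrays of 2%, and only replicate 1 at 2% fell far below the others of its level. At 0.25% the log2 fold change was 0.45 (SE 0.12), which just missed the threshold (adjusted p = 0.0566) and TPS2 rose with the replicate block (adjusted p = 0.00499). When replicate 1 at 2% was left out, the unblocked change was 0.29 (adjusted p = 0.225).

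TSL1, the regulatory subunit known as the more stress-responsive of the pair, moved most. Its signal was 228, 441 and 304 in replicates 1, 2 and 3 at 2% glucose, and 294, 395 and 448 at 1%. At 0.5% it was 383, 499 and 580, and at 0.25% it was 339, 570 and 653. The arrays of neighbouring levels overlapped throughout, and so did those of 0.25% and 2%, because replicate 1 at 0.25% lay below replicate 2 at 2%. Within each replicate number the 0.25% array was the higher one, by 0.57, 0.37 and 1.10 on the log2 scale. The log2 fold change at 0.25% against 2% was 0.68 (SE 0.26, adjusted p = 0.203). With the replicate block the SE was 0.12 and TSL1 rose (adjusted p = 0.00219).

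TPS3, the other regulatory subunit, had no call in any comparison. It had 732, 809 and 752 at 2%, and 805, 719 and 747 at 1%. At 0.5% the values were 698, 741 and 732, and at 0.25% they were 792, 736 and 710. Every level overlapped every neighbour in order of mean, and the level means lay between 724 and 764. At 0.25% against 2% the log2 fold change was -0.04 (SE 0.08, adjusted p = 0.881; 0.805 with the replicate block), its sign changing without replicate 2 at 2% (0.01).

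NTH2, the paralogue of the main neutral trehalase, was the trehalase gene with calls. It had 188, 228 and 228 at 2% and 207, 221 and 245 at 1%. The values were 245, 275 and 280 at 0.5%, and 257, 296 and 292 at 0.25%. All 3 arrays at 0.5% and at 0.25% exceeded all 3 at 2%. Of the step from 1% to 0.5%, NTH2 had the one unadjusted p under 0.05 among the members (log2 0.25, SE 0.11, unadjusted p = 0.0434), which did not pass over all genes (adjusted p = 0.998). At 0.25% against 2% the log2 fold change was 0.40 (SE 0.11, adjusted p = 0.069), and NTH2 rose with the replicate block (adjusted p = 0.00644), by 0.45, 0.38 and 0.36 within the 3 replicate numbers.

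NTH1, the main neutral trehalase, held 426, 481 and 403 at 2%, and 437, 460 and 367 at 1%. It had 459, 478 and 442 at 0.5%, and 454, 513 and 438 at 0.25%. The arrays of all neighbouring levels overlapped, with level means from 421 to 468. Its log2 fold change at 0.25% was 0.10 (SE 0.10, adjusted p = 0.716; 0.394 with the replicate block), although the 0.25% array was the higher in 3 of 3 replicate numbers, by 0.09, 0.09 and 0.12.

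ATH1, acid trehalase, which acts on trehalose outside the cytosol, was dim and was left out of the test, since its mean lay under the signal of 110 that marks the dimmest 25% of genes. Its signals were 66.2, 83.4 and 65.9 at 2% and 82.3, 75.7 and 82.5 at 1%. At 0.5% they were 73.1, 86.1 and 93.5, and at 0.25% they were 82.3, 90.4 and 90.2. The levels overlapped, and in a fit with no dim filter its log2 fold change at 0.25% was 0.29 (SE 0.14, adjusted p = 0.294; 0.175 with the replicate block).

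**Figure D2:**
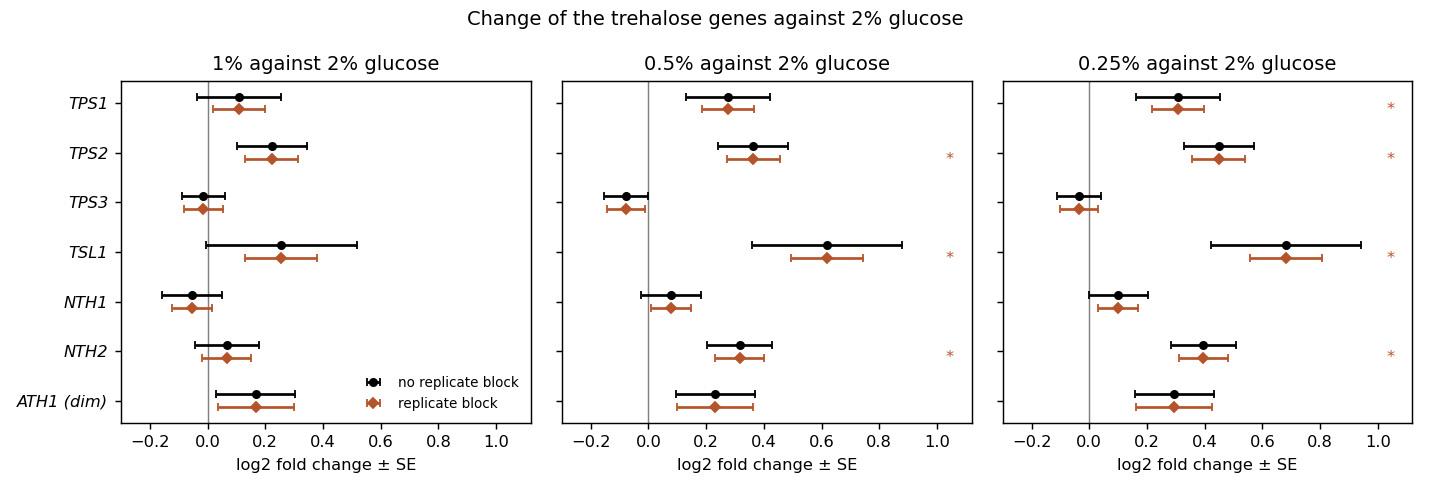
Log2 fold change (x axis, with SE) of each trehalose gene at 1%, 0.5% and 0.25% against 2% glucose. Black circles are from the fit without the replicate block, brown diamonds from the fit with it; an asterisk marks a blocked adjusted p under 0.05. ATH1 is from fits with no dim filter. The estimates of both fits coincide and the blocked bars are shorter for TSL1, whose SE goes from 0.26 to 0.12.

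Across the glucose series, the comparisons of 1%, 0.5% and 0.25% with 2% share the 2% arrays and are not independent of each other. At 1% against 2%, 0 of 6 members passed in limma, where 0.245% of all tested genes did. The count was 0 also at an unadjusted p under 0.05 (6.90% of all tested genes) and with the replicate block (0.979%). Log2 fold changes at 1% ran from -0.05 for NTH1 to 0.26 for TSL1. At 0.5% against 2%, 0 of 6 passed without the block (background 1.15%), and 3 had an unadjusted p under 0.05 (background 14.1%). With the block TSL1 (0.62, adjusted p = 0.00715), TPS2 (0.36, adjusted p = 0.0237) and NTH2 (0.32, adjusted p = 0.0314) rose, where 9.69% of all tested genes passed and 3.35% rose. TPS1 was at 0.28 there (adjusted p = 0.0658 with the block). The blocked call of TSL1 held when any single array was left out (adjusted p up to 0.0396). TPS2 no longer passed once replicate 1 of the 2% level was removed (0.24, adjusted p = 0.122), nor once replicate 1 or 2 of the 0.5% level was (0.0705 and 0.1). For NTH2 the call was lost without replicate 1 or 3 at 2% (0.114 and 0.0557), replicate 3 at 1% (0.0502), replicate 1 or 2 at 0.5% (0.103 and 0.12) or replicate 3 at 0.25% (0.0511). With the ribosomal RNA signal as a covariate beside the block, none of these 3 genes passed at 0.5% (adjusted p = 0.249 for TSL1, 0.378 for TPS2 and 0.457 for NTH2). In 2 of the 6, TPS2 and NTH2, the arrays of 0.5% and of 2% did not overlap, as in 6.53% of all tested genes in the higher direction; for 0.25% against 2% it was again these 2 of 6, where 10.1% of all tested genes did so.

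Single steps between the lower levels were small. From 1% to 0.5% the members' log2 changes ran from -0.06 for TPS3 to 0.36 for TSL1, and from 0.5% to 0.25% between 0.02 and 0.09. For both steps 0 of 6 passed in limma, where 0.0979% and 0.122% of all tested genes did, and 0 passed with the block, where 0.441% and 0.416% did. An unadjusted p under 0.05 was found for 1 member in the first step and 0 in the second, and for 3.38% and 3.33% of all tested genes. The test for any difference between levels likewise gave 0 of 6 members (lowest adjusted p = 0.185; background 2.13%; 2 members with an unadjusted p under 0.05, background 10.6%) and 3 with the replicate block (background 8.13%). These were TSL1 (adjusted p = 0.00584), NTH2 (0.016) and TPS2 (0.0222).

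A graded change is what the slope on the log2 glucose level measures, given here as the log2 change for each halving of glucose. TPS2 rose by 0.15 per halving (SE 0.04, adjusted p = 0.023) and NTH2 by 0.14 (SE 0.03, adjusted p = 0.0187), 2 of 6 members, where 5.19% of all tested genes passed and 3.52% rose. An unadjusted p under 0.05 was found for 4 of 6 and for 17.5% of all tested genes. TSL1 had the steeper slope, 0.24, with more spread (SE 0.08, adjusted p = 0.092), and TPS1 had 0.11 (SE 0.04, adjusted p = 0.184). With the replicate block all 4 passed, TSL1 with adjusted p = 0.000689 and TPS1 with 0.0181, where 10.6% of all tested genes passed. TPS3 was at -0.02 (adjusted p = 0.753) and NTH1 at 0.04 (adjusted p = 0.52). Level means were higher at each halving in 4 of the 6 tested members, and in ATH1 as well, while 8.74% of all tested genes had such an order.

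The calls of TPS2 and NTH2 for the slope rested on several arrays. Without replicate 1 at 2% the adjusted p was 0.0707 for TPS2 and 0.0844 for NTH2. Without replicate 2 at 0.25% the values were 0.0525 and 0.0628, and without replicate 3 at 0.25% they were 0.0703 and 0.067. When replicate 1 at 0.25% was left out instead, TSL1 (adjusted p = 0.0117) and TPS1 (0.0489) passed as well. With the replicate block, the slopes of TSL1, TPS2 and NTH2 passed without any single array. The blocked slope of TPS1 did not pass once replicate 3 was removed, whether that of 0.25% (0.09, adjusted p = 0.0953) or that of 2% (0.07, adjusted p = 0.0896).

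The array controls moved with these results. When the ribosomal RNA signal was added as a covariate, the slopes of TPS2 and NTH2 were 0.12 each and neither passed (adjusted p = 0.108 and 0.0885). With the block and this covariate together, the slopes of TSL1 (0.20, adjusted p = 0.0173), NTH2 (0.14, adjusted p = 0.0246) and TPS2 (0.13, adjusted p = 0.0465) passed, and that of TPS1 did not (0.12, adjusted p = 0.0518). In that same fit 0 members passed for 0.25% against 2%, with TSL1 at 0.56 and TPS1 at 0.40 (adjusted p = 0.0675 each), TPS2 at 0.40 (adjusted p = 0.101) and NTH2 at 0.34 (adjusted p = 0.146). With the 3' to 5' ratio as covariate in the unblocked fit, TPS2, TSL1 and NTH2 turned to -0.14, -0.01 and -0.03 at 0.25%, and 8 of all 4086 genes passed. With the block and this covariate the values at 0.25% were 0.68 for TSL1, 0.75 for TPS1, 0.17 for NTH2 and 0.01 for TPS2, and none passed (adjusted p from 0.272 for TPS1 to 0.992 for TPS2). The slopes stayed positive with this covariate, at 0.18 for TSL1, 0.14 for NTH2, 0.10 for TPS1 and 0.09 for TPS2 without the block (adjusted p from 0.354 to 0.781). With the block they were 0.22 for TSL1 (adjusted p = 0.0542), 0.15 for NTH2 (0.057), 0.13 for TPS1 (0.121) and 0.10 for TPS2 (0.265). That ratio differs mainly between 2% and the rest, so it and the 2% level cannot be told apart in these arrays. After level means were taken out, it still correlated with the signal of TPS2 (r = -0.66) and NTH2 (-0.60). The values were -0.42 for TPS3, -0.30 for TSL1, -0.02 for TPS1 and 0.17 for NTH1.

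The 9 arrays at 1%, 0.5% and 0.25%, whose log2 3' to 5' ratios lay between 0.82 and 0.94, gave the slopes without the 2% level. They were 0.21 for TSL1, 0.16 for NTH2, 0.11 for TPS2 and 0.10 for TPS1 per halving, against 0.08 for NTH1 and -0.01 for TPS3. Without the block 0 of 6 passed in limma, where 0.979% of all tested genes did. TPS2 and NTH2 had an unadjusted p under 0.05, but the share of all tested genes with one was not counted for these arrays. With the block TSL1 rose (adjusted p = 0.0302) where 2.84% of all tested genes passed, and NTH2 missed the threshold at 0.0505. This set of arrays was chosen after seeing the data.

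Replicate number and glucose level both showed in the members. In TPS1, TPS2, TSL1 and NTH2, replicate 1 was the lowest array at all 4 levels, which held for 5.12% of all tested genes, and in NTH1 replicate 3 was the lowest at all 4, as in 13.1% of genes. Over the 12 arrays the log2 signals of TPS1, TPS2, TSL1 and NTH2 correlated pairwise with r from 0.70 to 0.93. After the level means were taken out r was still between 0.49 and 0.89, highest for TPS1 with TSL1. The arrays behind these values share glucose level and replicate number. TPS3 and NTH1 correlated with the other members, and with each other, with r from -0.37 to 0.36.

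The paralogues differed in their profile, and the log2 ratio within each array, which a linear scaling of whole arrays leaves unchanged, gave the size of that difference. Such a ratio need not cancel the 3' to 5' control. Over the 12 arrays that control correlated with NTH2 at r = -0.63 and with NTH1 at -0.08. The values were -0.55 for TSL1 and 0.12 for TPS3. The paralogue ratios were not fitted with this control as a covariate. The pairs TSL1 with TPS3 and NTH2 with NTH1 were taken for their common ancestry, after the values had been seen. Each sets a gene whose level means rose over a gene without a call, from the same arrays. The p-values of the ratios are therefore descriptive and no separate evidence, and other gene pairs were not examined. The log2 ratio of TSL1 to TPS3 was higher at 0.25% than at 2% by 0.72, and higher in 3 of 3 replicate numbers, although the arrays of the levels overlapped. Its slope was 0.26 per halving of glucose, from 0.20 to 0.35 when single arrays were left out. A two-sided permutation test over the 12 arrays gave p = 0.0307 (adjusted p = 0.0483 over the 2 pairs), and an exact permutation test within replicate numbers gave p = 0.00188 (adjusted p = 0.00188).

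NTH2 over NTH1 was higher by 0.29 at 0.25% than at 2%, again in 3 of 3 replicate numbers. The arrays of these levels narrowly failed to overlap. With the mean at 2% set to 0, the highest log2 ratio at 2% was 0.203 and the lowest at 0.25% was 0.208. Replicate 3 at 1% (0.444) lay above all arrays of 0.25%. The slope of this ratio was 0.10 per halving, from 0.08 to 0.12 without single arrays (two-sided permutation p = 0.0483, adjusted p = 0.0483; exact within replicate numbers p = 0.00159, adjusted p = 0.00188). Over the 9 arrays below 2% glucose the slopes were 0.22 and 0.09 and did not pass (permutation p = 0.224 and 0.265).

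**Figure D3:**
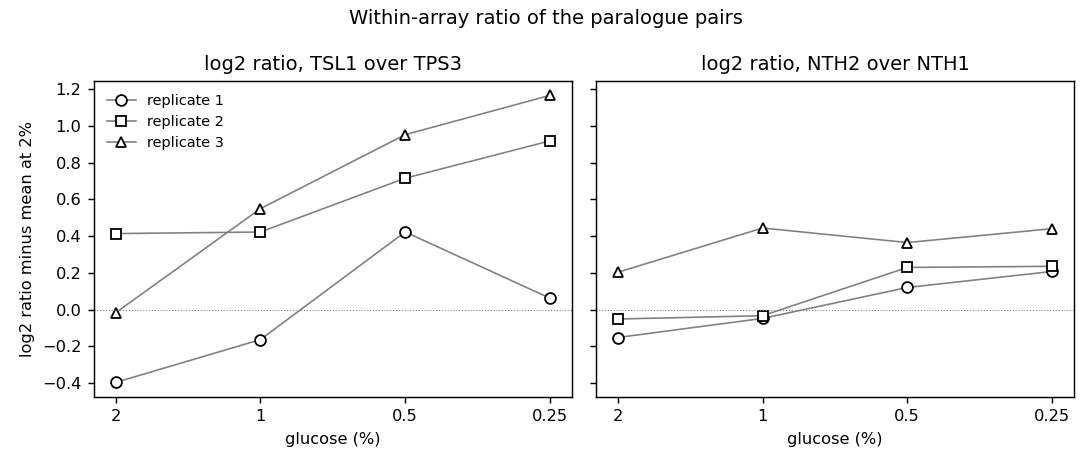
Within-array log2 ratio of TSL1 to TPS3 (left) and of NTH2 to NTH1 (right) at 4 glucose levels, with the mean at 2% set to 0. Each line joins the arrays of 1 replicate number. In both panels each line ends higher at 0.25% than it starts at 2%, for TSL1 over TPS3 by 0.72 on average.

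Genes with the most similar profile were sought for each tested member among the tested genes outside the trehalose list, as a description. Pearson's r of log2 signals over the 12 arrays was used. Members were left out as neighbours of each other, so TPS1 and TSL1, with r = 0.93 between them, are not listed below. For TSL1 they were PHO5, the repressible acid phosphatase (r = 0.94), HAP1, a heme-responsive transcription factor (0.93), and YHR033W (0.93). TPS1 was nearest to MLF3 (0.93), YNL058C (0.93) and STP3 (0.93). STP2, a transcription factor of amino acid uptake (0.95), CBF1, a centromere and promoter binding factor (0.93), and PEP4, vacuolar protease A (0.93), were nearest to TPS2. NTH2 was nearest to GAD1, glutamate decarboxylase (0.95), CAR1, arginase (0.94), and again PEP4 (0.92).

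For TPS3 the nearest were YDR003W-A (0.94), TOK1, a potassium channel (0.93), and COG6, of a Golgi tethering complex (0.92). NTH1 had the weakest likeness, to NUM1 (0.89), RHO1, a GTPase of cell wall growth (0.86), and RSM22 (0.84). The likeness to PHO5 and HAP1 remained after level means were taken out (r = 0.96 and 0.94).

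**Figure D4:**
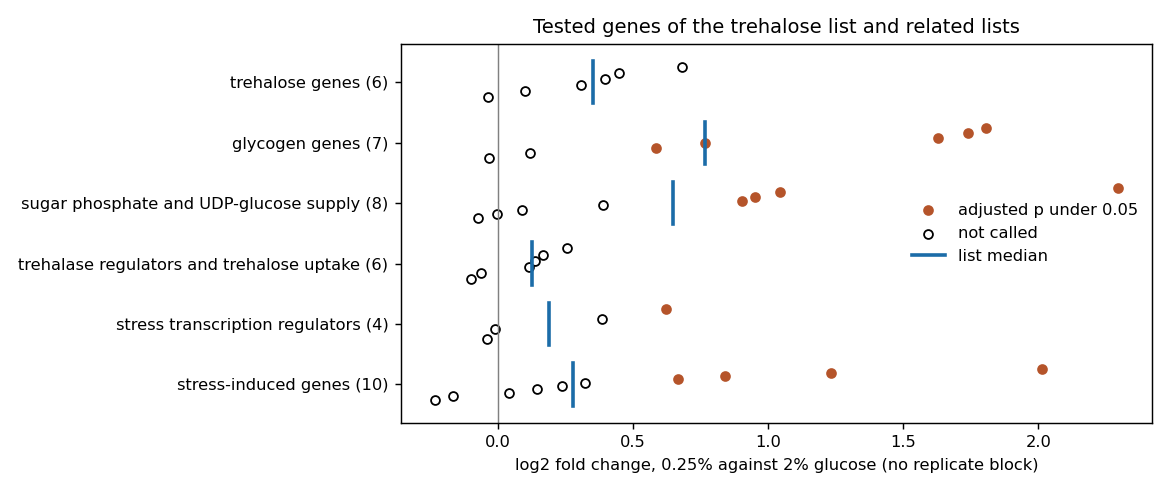
Log2 fold change at 0.25% against 2% glucose (x axis, fit without the replicate block) of each tested gene in the trehalose list and 5 related lists; numbers in brackets are tested genes. Filled brown points had an adjusted p under 0.05, open points did not, and blue bars are list medians. The trehalose median of 0.35 lies between those of the stress-induced genes, 0.28, and of the sugar phosphate genes, 0.65.

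The supply of the substrates of Tps1 was not measured. RNA signals were read in 8 genes of sugar phosphate and UDP-glucose formation. Of these, 4 rose at 0.25% against 2% and 0 fell (limma, where 2.91% of all tested genes rose and 1.13% fell; median log2 0.65 over the list and -0.02 over all tested genes). The 4 were the hexose kinase genes HXK1 (2.30) and GLK1 (0.95), the GLK1 paralogue EMI2 (0.91) and the phosphoglucomutase PGM2 (1.04). PGM2 had a mean of 104 at 2%, under the dim limit of 110, and passed the filter through the lower glucose levels. HXK2 (0.09), PGI1 (-0.0015) and PGM1 (-0.07) of the same list did not pass with or without the block. Their mean signals at 2% and 0.25% were 3511 and 3729 for HXK2, 4316 and 4305 for PGI1, and 788 and 750 for PGM1. UGP1, which makes UDP-glucose and is singled out here for that role after its value was seen, went from 1222 ± 179 to 1614 ± 370 (SD, n = 3 each). Its log2 fold change of 0.39 resembled those of TPS2 and NTH2, not passing without the block (adjusted p = 0.181) and passing with it (adjusted p = 0.0106).

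Tested genes for the storage of glucose as glycogen had a higher median log2 fold change than the tested trehalose genes. Of 14 listed glycogen genes 7 were bright enough to be tested. Among these 5 rose and 0 fell at 0.25% against 2% (limma, where 2.91% of all tested genes rose and 1.13% fell). Their median was 0.77 against 0.35 for the 6 trehalose genes. By size, the first 4 were glycogen phosphorylase GPH1 (1.81), the branching enzyme GLC3 (1.74) and the synthases GSY1 (1.63) and GSY2 (0.77). The 2% means of GSY1 (80.1), GPH1 (87.4) and GLC3 (108) lay under the dim limit of 110. These genes passed the filter through the lower glucose levels, which tilts the count and the median of the list upward. The difference between the lists was not tested.

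Regulators of the trehalases showed no call. The list held BMH1 and BMH2, the 14-3-3 proteins that bind and activate Nth1, subunits of protein kinase A, which phosphorylates it, DCS1, DCS2 and the transporter gene MAL11, which imports trehalose. Of 6 tested genes 0 passed at 0.25% against 2% without the block (limma, where 4.04% of all tested genes did). With the block 0 passed as well, where 10.9% of all tested genes did. The median was 0.13. DCS1, a decapping scavenger enzyme, was at 0.26 (adjusted p = 0.288), TPK2 at 0.17, BCY1, the inhibitory subunit of the kinase, at 0.14, and BMH2 at 0.11. DCS2 and MAL11 were dim.

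Regulators of stress transcription had 4 tested genes, of which GIS1, an activator at the diauxic shift, rose (0.62, adjusted p = 0.0325). Of all tested genes 2.91% rose. YAK1, a kinase that restrains growth, was at 0.39 (adjusted p = 0.14; 0.0299 with the block), while the heat shock factor gene HSF1 was at -0.04 and MSN2 at -0.01. MSN4, the partner of MSN2, and RIM15 were dim and not tested.

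Of 14 listed stress-induced genes 10 were tested, while CTT1, SSA3, GRE1 and ALD3 were dim. The median of the 10 was 0.28. Among them 4 rose and 0 fell (limma, where 2.91% of all tested genes rose and 1.13% fell). These were DDR2 (2.01), the small heat shock gene HSP12 (1.23), SPI1 (0.84) and GAD1 (0.67), the gene nearest in profile to NTH2. DDR2 had a mean of 67.5 at 2%, under the dim limit of 110, and passed the filter through the lower glucose levels. TFS1 was at 0.32 and passed only with the block (adjusted p = 0.0989 without and 0.0429 with it). With the block 5 of the 10 rose, where 6.36% of all tested genes did. The chaperone genes HSP104, SSA4, HSP42, HSP78 and HSP26 of the same list did not pass, and their signs were mixed. HSP104 was at -0.17 (adjusted p = 0.507) and SSA4 at -0.23 (adjusted p = 0.457). HSP42 was at 0.24 (adjusted p = 0.506), HSP78 at 0.15 (adjusted p = 0.774) and HSP26 at 0.04 (adjusted p = 0.905).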

How the data were processed

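The authors deposited 1 array intensity per probe set on a linear scale, from biotin-labelled total RNA extracted with a Trizol reagent and read on Affymetrix arrays, per the labels' protocols. Per the deposited values, every array had been scaled to a trimmed mean of 500 (2% left out at each end, zeros ignored); no source used here names the program. A change in total RNA per cell is hidden by this. Probe sets were named through the platform annotation and updated by gene ID (RefSeq, assembly R64): of 10928, 5498 had 1 yeast gene, 1 had several symbols and 3683 had none listed; the brightest was kept for each of 5449 genes. The log2 of the signal, floored at 1, was analysed, and genes with a mean in the lowest 25% were left out as dim, which left 4086; 6 of the 7 members were tested. Array medians lay within 0.173 (limit 0.2), so no further scaling was applied.

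Level means over all 12 arrays were compared with limma 3.58.1 in R 4.3.3 (two-sided, prior variance following intensity, Benjamini-Hochberg over all tested genes, threshold 0.05). The method was tested on simulated data. Equal replicate numbers are not stated to belong together in the labels. Across genes, deviations from the level means of same-numbered arrays had r of 0.53, 0.12 and 0.53 for 0.25% with 2%, and 17 of 18 such pairs over all levels were above 0.1; the exception, -0.03, was replicate 2 of 1% and 2%. The block is therefore given beside each call it changes. Precision is limited by 3 arrays per level; a log2 fold change had a median SE of 0.11. Paralogue ratios were tested with 100000 permutations over arrays and with all 13824 arrangements within replicate numbers.

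Members and lists were chosen with earlier results of these data known. Named genes are all 7 members and up to 4 tested genes of each list by size at 0.25% against 2%. The 3 nearest non-member genes of each tested member are also named, and others where said. UGP1, BMH1, MSN4, RIM15, DCS2, MAL11, HSP104, SSA4, HSP42, HSP78 and HSP26 were named for their role after their values were seen. CTT1, SSA3, GRE1 and ALD3 were named as the dim genes of their list. TFS1 was named because the block changed its call, and HXK2, PGI1 and PGM1 as the remaining tested genes of their list. Alternatives were other scalings, offset, filters, probe set rule, block, weights, array control covariates, arrays of the compared levels alone and each array left out.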

Additional observations from a re-analysis of the deposited data

How the results depend on the processing

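Without single arrays, 0 to 1 trehalose genes passed for 0.25% against 2% (1, TPS2, without replicate 2 or replicate 3 at 2%), 0 for 0.5% against 2% and for any difference, and 0 to 4 for the slope; with the replicate block as well, the counts were 2 to 4, 1 to 4, 1 to 3 and 3 to 4. The lowest count at 0.25% came without replicate 1 at 0.25%, where TPS2 was at an adjusted p of 0.0515. For 0.25% against 2%, 0.5% against 2%, any difference and the slope, the replicate block gave 4, 3, 3 and 4 called members, the block with quantile normalization 4 in each, and array weights 3, 2, 2 and 3. With no dim filter TPS2 passed at 0.25% (1 member, adjusted p = 0.0487). A dim filter at the median, which leaves NTH2 out by construction, gave 1 for the slope, as did the lower 3 levels with the block. The slope count was 0 with the ribosomal RNA covariate, with the 3' to 5' covariate (also with the block) and over the lower 3 levels alone; with the ribosomal RNA covariate and the block it was 3. The block changed no call for 1% against 2% or the single steps. All genes called at 0.25% against 2% numbered 165 without and 445 with the block, 8 with the 3' to 5' covariate and 83 to 183 without single arrays.

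Signs turned in values that had not passed, and the cause was not tested. With quantile normalization TPS3 was at 0.024 for 1% and 0.0018 for 0.5% against 2%, and with median scaling at 0.00968 for 1%. At 1% against 2% the ribosomal RNA covariate gave -0.00976 for TPS1, 0.016 for TPS3, -0.024 for TSL1, 0.041 for NTH1 and -0.046 for NTH2. The 3' to 5' covariate gave -0.37 for TPS2, -0.44 for TSL1, 0.070 for NTH1 and -0.37 for NTH2 at 1%, then -0.18, -0.021 and -0.082 for TPS2, TSL1 and NTH2 at 0.5%, and -0.14, -0.011 and -0.035 at 0.25%. Without single arrays the change at 1% ran from -0.059 to 0.027 for TPS3, from -0.12 to 0.042 for NTH1 and from -0.025 to 0.12 for NTH2, and at 0.25% from -0.079 to 0.0063 for TPS3. The offset of 16, the mean of probe sets, no intensity trend and the compared levels alone changed no call of a trehalose gene. Protein and promoter sequences were not analysed here. Depth is not defined for arrays; ATH1, the dimmest member, had signals up to 93.5.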
